A study of Caenorhabditis elegans with 4 samples.

Results

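LSY-2 had 234 called regions on the X chromosome of second larval stage *Caenorhabditis elegans*, out of 1702 over all chromosomes. The members are every region of the combined list of this ChIP-seq experiment (chromatin immunoprecipitation and sequencing) that lies on X, with start and end in build WS180. The replicate 1 list held 148 regions on X out of 1099, and the replicate 2 list held 91 out of 746. X regions were fewer per megabase than those of the autosomes as a whole, they were wider, they stood farther from each other, and fewer of them lay in the middle of the chromosome.

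LSY-2 is a C2H2 zinc finger protein that the ASE taste neurons need in order to differ between left and right, and there it acts upstream of the microRNA lsy-6. The lsy-2 gene is itself X-linked. Hermaphrodites carry a pair of X chromosomes as they carry a pair of each autosome, and the dosage compensation complex sits on both X chromosomes and lowers their transcription. X is also known for carrying few genes that are active in the germ line, and for having less distinct arms and centre than the autosomes, whose central parts are rich in genes and poor in recombination.

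There were 2 ChIP samples and 2 input samples, all of hermaphrodites of strain OP240 at the L2 stage raised at 20 degrees C and fixed in 2% formaldehyde. These worms carry unc119(ed3) and the bombarded transgene wgIs240, in which lsy-2 is joined to TY1, EGFP and FLAG and which also holds unc119; the strain was outcrossed 3 times. The labels do not say that the worms lack their own lsy-2, so the tagged protein is taken as an addition to it, and whole worms were used, so the cells in which a region is bound are not known. The labels name an anti-GFP antibody made in goat, which their protocol gives as the reagent of the ChIP step; the sample descriptions list it under the input samples, against the titles by which samples were grouped here. No ChIP of worms without the tag was analysed here, and nothing in the labels tells whether separate cultures gave the replicates, so their differences may be technical only. The lists hold for each region only its limits and a q-value from the authors' caller, so read depth is unknown. The −log10 q of a region, called its score below, is used to rank regions within a list; it grows with depth as well as with enrichment. Tests below count regions as if independent, though regions are not replicates: they describe these 3 lists, of which the combined one shares nearly all of its replicates' regions.

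The strongest X region in the combined list lay at 14525257 to 14526386. Its score was 159 in the combined list, and 113 and 63.8 in replicates 1 and 2. The X region at 15840907 to 15841615 came second in the combined list and first in each replicate, with scores of 150 in the combined list and 131 and 106 in replicates 1 and 2. The order of the leading X regions thus differed between the lists. The next pair of regions lay in the left part of X. The region at 2996331 to 2997539 scored 140 in the combined list and 88.3 and 59.1 in replicates 1 and 2. The region at 2242688 to 2243274, the narrowest of the 20 strongest at 587 bp, scored 137 in the combined list and 95.9 and 74.3 in replicates 1 and 2, so that it ranked above the region at 2996331 in both replicates.

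Scores of the 20 strongest X regions ranged from 47.3 to 159 in the combined list. In replicate 1 the same regions scored from 29.6 to 131, and in replicate 2 from 17.1 to 106. All 20 were called in both replicate lists, and in 20 of 20 the score was higher in replicate 1 than in replicate 2 and highest in the combined list. These regions were picked by their combined score, so such counts say little about X. Of 384 autosomal regions with combined scores of 15.9 or more, 98.4% were called in both replicate lists. Replicate 1 had the higher score in 89.8% of all pairs of overlapping replicate regions. For the 20, the replicate 1 to replicate 2 ratio of scores ran from 1.16 to 1.93, with a median of 1.60. The smallest ratio belonged to the region at 4711690 to 4712311, with 29.6 in replicate 1 and 25.6 in replicate 2. The largest belonged to the region at 11604178 to 11606676, with 38.4 in replicate 1 and 19.9 in replicate 2. Since depth enters every score, these ratios do not measure a change in binding. Of the 20, 7 lay in the left 33.3% of X, 5 in the central and 8 in the right, and 5 of 20 had another combined region within 10 kb. Of all 234 X regions, 33.3%, 26.5% and 40.2% lay in those parts. Another region lay within 10 kb for 36.8% of X regions and 45.9% of all combined regions. These counts of the 20 were not tested against those shares.

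**Figure D1:**
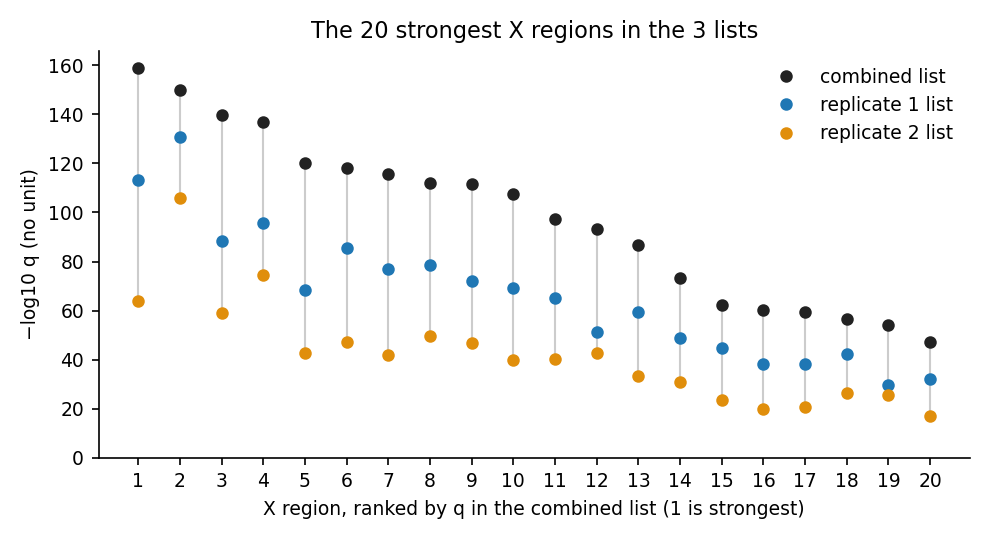
Each column is 1 of the 20 strongest X regions, in the order of q in the combined list, and the points give its −log10 q (vertical axis, no unit) in the combined list, the replicate 1 list and the replicate 2 list. In every column the replicate 2 point is lowest and the combined point highest, and the region in position 2 has the highest point of both replicates, at 131 and 106.

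Among the others, the fifth region, at 16929331 to 16931951 near the right end of X, was wide in all 3 lists, with 2621 bp in the combined list and 2541 and 2441 bp in replicates 1 and 2. Its score was 120 in the combined list and 68.3 and 42.8 in the replicates. The sixth, at 11093683 to 11094640, stood only 719 bp from its neighbour and scored 118 in the combined list and 85.5 and 47.3 in the replicates. The most isolated of the 20 was the region at 1626662 to 1627495. Its nearest combined region was 172 kb away, and it scored 62.2 in the combined list and 44.9 and 23.8 in the replicates. The remaining 11 scored from 47.3, at 1344729 to 1345379, to 116, at 4208444 to 4210072, in the combined list.

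Strong regions lay on X in each list, in a share that moved with the number taken. X held 10.0% of the strongest 20 regions, 22.0% of the strongest 50, 17.0% of the strongest 100 and 13.0% of the strongest 200 in the combined list, against 13.7% of the whole list. In replicate 1 these shares were 10.0%, 20.0%, 17.0% and 12.5%, against 13.5% of the list. In replicate 2 they were 5.0%, 14.0%, 14.0% and 12.0%, against 12.2% of the list. X thus lay below its share of each list among the strongest 20 and 200 and above it among the strongest 50 and 100, and these shares were not tested. The median score of X regions was 6.89 in the combined list and 6.97 and 6.01 in replicates 1 and 2, against 8.20, 7.53 and 7.07 for autosomal regions of those lists. In the combined list 44.0% of X regions (103 of 234) and 51.0% of autosomal regions (748 of 1468) lay above the median of 7.96, where the whole list has 50% by construction. This difference of −6.94 percentage points (95% interval −13.7 to −0.04) did not pass Fisher's exact test after adjustment over the 10 comparisons of X with the autosomes (two-sided, adjusted p = 0.0817).

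X carried fewer LSY-2 regions per megabase than the autosomes. There were 13.6 X regions per Mb of span (95% Poisson interval 11.9 to 15.4) in the combined list, 8.59 (7.27 to 10.1) in replicate 1 and 5.28 (4.25 to 6.49) in replicate 2, where the span is the stretch between the outermost regions of a chromosome in any list and measures 17.2 Mb on X. The autosomes had 17.9, 11.6 and 8.01 per Mb. In the combined list the ratio of X to autosomes was 0.757 (95% interval 0.657 to 0.870, exact binomial test, two-sided, adjusted p = 1.94e-04). Not every autosome lay above X. Chromosome V had 12.5 regions per Mb (11.0 to 14.1) in the combined list, 8.11 (6.94 to 9.43) in replicate 1 and 5.23 (4.30 to 6.31) in replicate 2, and these intervals overlap those of X in all 3 lists. Chromosome I was close to X in both replicates, with 9.69 per Mb (8.18 to 11.4) in replicate 1 and 6.04 (4.86 to 7.42) in replicate 2, but had 18.7 (16.5 to 21.0) in the combined list. Chromosome III had the highest density in each list. When combined regions under 10 kb apart were joined, the ratio rose to 0.845 and no longer passed the exact binomial test (adjusted p = 0.0648).

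**Figure D2:**
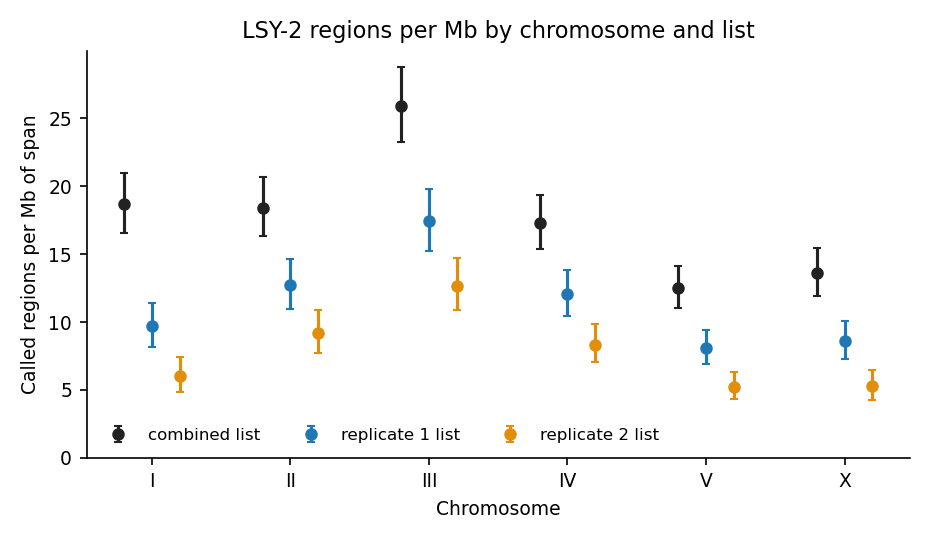
Called regions per Mb of span (vertical axis) by chromosome (horizontal axis) in the combined, replicate 1 and replicate 2 lists; bars are 95% exact Poisson intervals, which cover counting error only. X, at 13.6, 8.59 and 5.28 per Mb, and V, at 12.5, 8.11 and 5.23, lie lowest in all 3 lists.

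The X regions covered 149 kb, or 0.863% of the span of X, against 1.03% of the autosomal spans. X thus held 13.7% of the regions and 15.0% of the bases of the combined list. The replicate lists showed the same order, with 13.5% of regions and 15.1% of bases in replicate 1 and 12.2% and 14.5% in replicate 2.

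X regions were wider than autosomal regions. Their median width was 531 bp in the combined list and 502 and 518 bp in replicates 1 and 2, against 453, 425 and 399 bp on the autosomes. X had the largest median of the 6 chromosomes in all 3 lists, followed in each by chromosome I with 484, 462 and 424 bp. In the combined list 62.0% of X regions (145 of 234, 95% exact interval 55.4 to 68.2%) and 47.8% of autosomal regions (702 of 1468, 45.2 to 50.4%) were wider than the list's median of 459 bp, and 49.8% of all regions were. The difference of 14.1 percentage points (95% interval 7.29 to 20.6) passed Fisher's exact test (two-sided, adjusted p = 1.94e-04). It was 15.8 points within the replicate 1 list and 23.5 points within the replicate 2 list, each against that list's own median (Fisher's exact tests, adjusted p = 0.00114 and 2.89e-04).

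A difference in width was also found within broad classes of score or of replicate call, though not in every class. Across regions of the combined list, the Spearman rho of width and score was 0.53 on X (234 regions) and 0.43 on the autosomes (1468 regions), as a description, because the caller set both. In the strongest 25% of the list the median width was 857 bp for 42 X regions and 565 bp for 384 autosomal ones. In the next 25% it was 523 and 449 bp, in the 25% after that 557 and 415 bp, and in the weakest 25% 392 and 377 bp. The gap was thus large among strong regions and small among the weakest. Regions within a class were not matched in score. In the strongest class, scores ran from 16.5 to 159 on X and from 15.9 to 282 on the autosomes. The part of score in the gap within a class was not tested. With each region set against the median of its own 25% class, the difference in the share of wide regions was 19.0 points (Fisher's exact test, adjusted p = 7.14e-07). Among regions called in both replicates it was 28.7 points (adjusted p = 6.79e-06), with median widths of 708 bp on X and 506 bp on the autosomes, and among regions called in neither it was 3.76 points and did not pass (adjusted p = 0.562, Fisher's exact tests). These splits by strength and by replicate call were added after the values were seen.

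**Figure D3:**
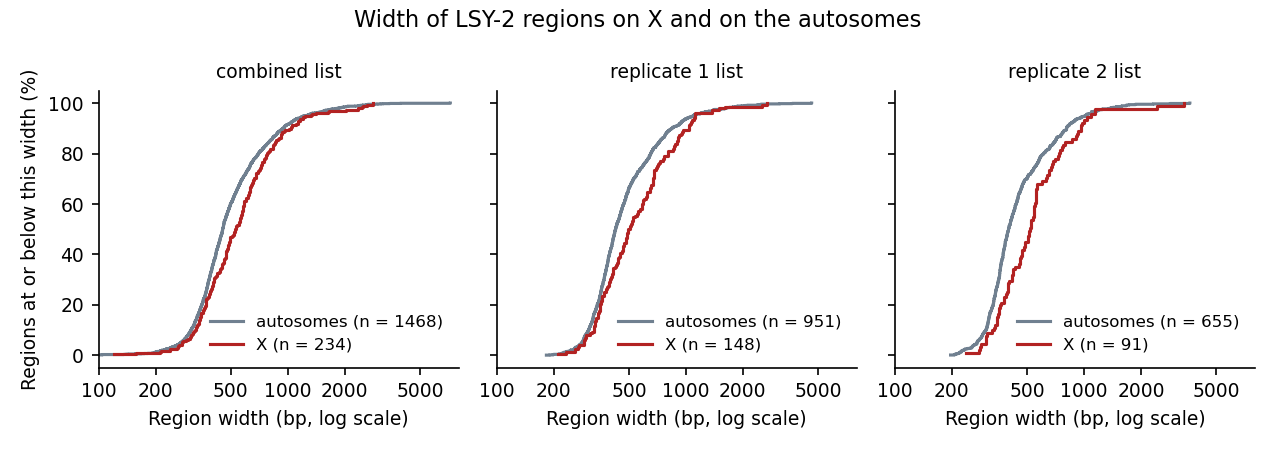
Share of regions (vertical axis, %) at or below each width (horizontal axis, bp, log scale that starts at 100 bp) for X and the autosomes in each list. The X curve lies to the right of the autosomal curve through the middle of each panel, with medians of 531, 502 and 518 bp against 453, 425 and 399 bp.

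The widest X region was not among the 20 strongest. It lay at 6251931 to 6254755 and measured 2825 bp in the combined list and 2691 and 928 bp in replicates 1 and 2. Its score was 31.0 in the combined list and 23.5 and 6.10 in the replicates, a ratio of 3.85 that was the highest of all X pairs. The next, at 6741965 to 6744784, measured 2820 bp in the combined list and 963 bp in replicate 1, with scores of 13.9 and 5.06, and was not called in replicate 2. The third was the strong region at 16929331 described above. Both of the first pair therefore had shorter limits in 1 or more of the replicate lists, while the third kept its limits. In all, 25 X regions (10.7%) were wider than 1000 bp, as were 8.75% of all combined regions. Chromosome I had a larger share of such regions in the combined list, with 36 of 281 (12.8%), so X had the largest median width there but not the most very wide regions.

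Of the 234 X regions of the combined list, 84 were called in both replicate lists (35.9%, 95% exact interval 29.8 to 42.4%), against 40.7% of all combined regions and 41.5% of autosomal ones (609 of 1468). A further 57 were called in replicate 1 only (24.4%, background 22%), 6 in replicate 2 only (2.56%, background 2.35%) and 87 in neither (37.2%, background 34.9%). X and the autosomes did not differ past the threshold in either share: the difference was −5.59 percentage points for both (95% interval −11.99 to 1.21, adjusted p = 0.144) and 2.64 points for neither (−3.79 to 9.43, adjusted p = 0.468, two-sided Fisher's exact tests). Without chromosome I, which has the lowest share called in both at 31.3%, the first difference was −7.99 points and passed (Fisher's exact test, adjusted p = 0.0416). That p-value was adjusted within this setting only. The X regions of both replicates had a median score of 16.0 and a range from 5.36 to 159. Those of replicate 1 only had a median of 6.59, those of replicate 2 only 7.16 and those of neither 4.45. The last reached at most 9.22, at 15866107 to 15866381. Those of replicate 1 only reached 13.9 and those of replicate 2 only 9.72. Every X region stronger than 13.9 in the combined list was thus called in both replicates. On the autosomes, regions called in replicate 1 only reached 25.2. In the strongest 25% of the combined list, 98.4% of autosomal regions and 42 of 42 X regions were called in both.

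At the other end, the weakest X region called in both replicates lay at 7284447 to 7285223 and scored 5.36 in the combined list and 5.54 and 4.41 in the replicates. Its combined value thus lay below that of replicate 1. The next weakest, at 14707959 to 14708577, had 7.92 in the combined list and was stronger in replicate 2, at 8.31, than in replicate 1, at 4.53. The strongest X regions called in replicate 1 only, after the wide one given above, lay at 4388670 to 4389247 and at 15534884 to 15535608, with combined values of 13.2 and 12.5 and replicate 1 values of 7.84 and 10.8. Those called in replicate 2 only lay at 2687180 to 2687483, 14639669 to 14640291 and 14559995 to 14560674. Their combined values were 9.72, 8.97 and 8.01, and their replicate 2 values, from 4.20 to 4.50, were near the lowest of that list on X, 3.77. After the one at 15866107, the strongest X regions called in neither lay at 17513309 to 17513874 and 8155514 to 8156263, with 8.58 and 7.11.

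Seen from the replicate lists, 84 of 148 X regions of replicate 1 had a partner in replicate 2 (56.8%, 95% exact interval 48.4 to 64.9%), against 64% of all replicate 1 regions and 65.1% of autosomal ones. X had the lowest share of the 6 chromosomes, next to I at 61.0% and V at 61.5%, but the difference of −8.33 points (−16.9 to −0.03) did not pass after adjustment (Fisher's exact test, two-sided, adjusted p = 0.0817). All 29 X regions in the strongest 25% of replicate 1 were found again, as were 32 of 40 in the next 25%, 15 of 35 in the one after and 8 of 44 in the weakest. On the autosomes the shares in those classes were 100%, 85.5%, 51.7% and 21.2%, against 100%, 80.0%, 42.9% and 18.2% on X. Of 91 X regions of replicate 2, 84 had a partner in replicate 1 (92.3%, 84.8 to 96.9%), against 94.2% of all replicate 2 regions, and X and the autosomes differed by −2.20 points (−9.69 to 2.21, Fisher's exact test, adjusted p = 0.468).

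The 84 X regions shared by the replicates formed 84 pairs, each of 1 region in either list. Their limits were close, with a median distance between midpoints of 33.3 bp and at most 731 bp, and a median overlap of 486 bp. Replicate 1 had the higher score in 76 of 84 pairs (90.5%), and in 89.8% of all pairs. The median score of these X pairs was 8.91 in replicate 1 and 6.43 in replicate 2, and of the autosomal pairs 12.0 and 7.58. The Spearman rho between the replicates across pairs was 0.82 on X and 0.87 on the autosomes for the score, and 0.88 and 0.82 for width. These correlations are across regions of the same pair of libraries and are given as a description.

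The step between the replicates was larger on X. The median replicate 1 to replicate 2 ratio of scores was 1.54 on X and 1.38 on the autosomes, and from 1.33 on IV and V to 1.43 on I among single autosomes. Of the 84 X pairs, 53 (63.1%, 95% exact interval 51.9 to 73.4%) lay above the median ratio of all pairs, 1.39, as did 301 of 625 autosomal pairs (48.2%) and 49.9% of all pairs. The difference of 14.9 percentage points (95% interval 3.56 to 25.2) passed Fisher's exact test (two-sided, adjusted p = 0.0213). It was 13.7 to 15.1 points when each pair was set against pairs of its own 25% class by score in replicate 1, replicate 2 or the combined list, a check added after the values were seen (Fisher's exact tests, adjusted p from 0.0209 to 0.0401). With 1 pair of libraries, a difference between these libraries and a general property of X cannot be told apart. In 8 X pairs the order was reversed and replicate 2 had the higher score. The largest such step was the region at 14708142 to 14708571 in replicate 1, with 4.53 against 8.31 in replicate 2. Of the 8, those with both values above 8 were at 10568072 to 10569133 in replicate 1, with 8.93 against 10.7, and at 15849277 to 15849713, with 8.87 against 9.25.

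**Figure D4:**
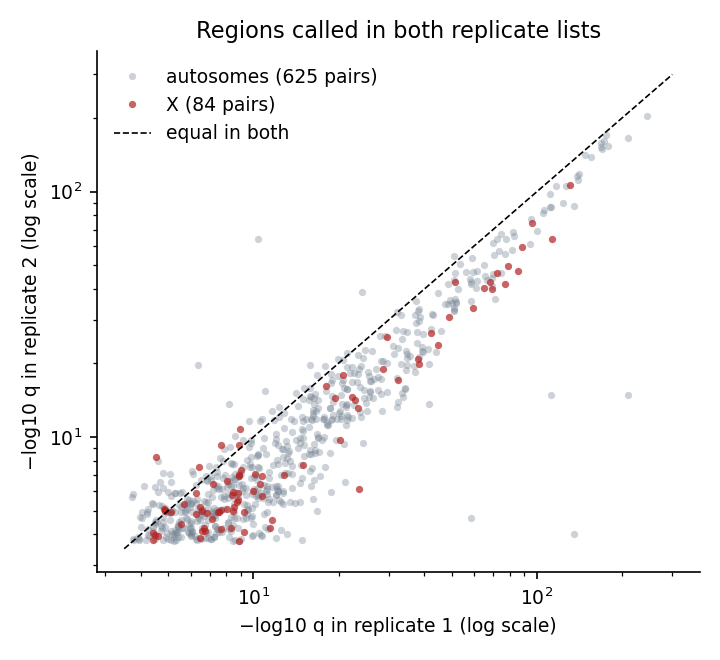
−log10 q in replicate 1 (horizontal, log scale) and replicate 2 (vertical, log scale) for the 84 X pairs and 625 autosomal pairs of overlapping regions; the dashed line marks equal values. Of the X pairs 76 lie below the line, and their median ratio is 1.54 against 1.38 for the autosomes.

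LSY-2 regions on X were not gathered in the middle of the chromosome. Of the 234 combined X regions, 78 lay in the left 33.3% of the span, 62 in the central and 94 in the right (33.3%, 26.5% and 40.2%). The autosomes had 29.5%, 40.8% and 29.7%, and 38.8% of all regions were central. The central share thus differed by −14.3 percentage points (95% interval −20.1 to −7.81, Fisher's exact test, two-sided, adjusted p = 1.94e-04). In replicate 1 the X counts were 59, 34 and 55 and the central share was 23.0% against 38.2% on the autosomes. In replicate 2 they were 33, 28 and 30, and the central share of 30.8% against 38.8% did not pass (difference −8.01 points, Fisher's exact test, adjusted p = 0.224). X had the lowest central share of the 6 chromosomes in the combined list and in replicate 1, and IV had a lower one in replicate 2, at 30.1%. Single autosomes were not alike. In the combined list the central share was 46.6% on I, 43.3% on III and 44.6% on V. It was 35% on II and 34.5% on IV, near an even 33.3%, and in replicate 1 it was 32.6% and 33.8% there. The right share of II in the combined list, 40.4%, was close to that of X.

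By 10% stretches of the span, the densest part of X in the combined list was the ninth, from 80 to 90%, with 37 regions and 21.5 per Mb. The sparsest was the sixth, from 50 to 60%, with 15 regions and 8.71 per Mb. The autosomes had 13.2 per Mb in the ninth stretch and 22.5 per Mb in the sixth. The ninth stretch of X in the combined list, but not in the replicate lists, was also denser than the autosomes as a whole, at 17.9 per Mb. In replicate 1 the ninth stretch of X had 20 regions and 11.6 per Mb, where the autosomes as a whole had 11.6, and the densest stretch of X was the third, from 20 to 30%, with 22 regions. In replicate 2 the ninth had 11 regions and 6.39 per Mb, where the autosomes as a whole had 8.01, and the first and second stretches of X also held 11 each. The sixth stretch held 10 and 6 regions in the replicates.

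**Figure D5:**
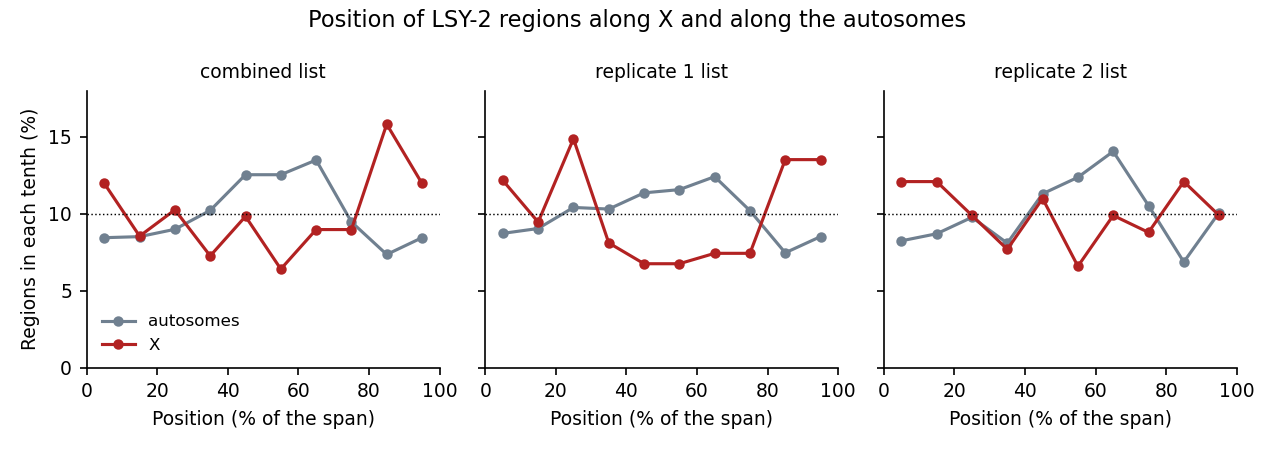
Share of regions (vertical axis, %) in each 10% stretch of the chromosome span (horizontal axis, % of the span) for X and the 5 autosomes together, in each list; the dotted line is an even spread. In the combined list X has 6.41% of its regions in the stretch from 50 to 60% and 15.8% in that from 80 to 90%, where the autosomes have 12.5% and 7.36%.

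X regions stood apart from each other. The median distance from an X region to its nearest neighbour was 18.1 kb in the combined list, 38.2 kb in replicate 1 and 49.1 kb in replicate 2, against 11.4, 16.5 and 28.7 kb on the autosomes. In the combined list 86 of 234 X regions (36.8%, 95% exact interval 30.6 to 43.3%) had another within 10 kb, against 45.9% of all regions and 47.4% of autosomal ones. The difference of −10.7 percentage points (−17.1 to −3.82) passed Fisher's exact test (two-sided, adjusted p = 0.00595). It was −15.1 points in replicate 1 and −16.9 points in replicate 2 (Fisher's exact tests, adjusted p = 0.00114 and 0.00154). X was also less dense, at 13.6 against 17.9 regions per Mb, and the part of density in this result was not tested. Chromosome V, with a density near that of X, had a like share of 37.3% in the combined list, but 31.4% in replicate 1 and 20.2% in replicate 2, where X had 23.0% and 13.2%.

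Joining regions under 10 kb apart gave 187 groups on X, of which 148 were single regions, 32 held 2 and 7 held 3 or more, with at most 4. Chromosome V, of like density, had 202 groups, of which 12 held 3 or more, with at most 5, and chromosome III had 238, of which 23 did, with at most 7. The densest stretch of X of up to 100 kb held 7 regions and lay at the right end of the listed span, at 17419737 to 17513874 or, shifted by its neighbours, at 17460711 to 17545752. Its regions scored from 4.09 to 12.5 in the first placement and from 4.30 to 18.3 in the second. The median of all X regions was 6.89. In the first placement 1 region was called in both replicates, and in the second 2 were. The longest stretches of X without a combined region lay at 3371704 to 3803340 (432 kb), 16210065 to 16604238 (394 kb) and 9091716 to 9465379 (374 kb). The strong X region at 9465380 marks the right edge of the last. Longer gaps were found on IV (718 kb), V (696 kb) and II (588 kb). Neither replicate list had a region in these gaps of X, nor in the 3 longest gaps of any autosome. The combined list held 96.6% and 98.9% of the X regions of replicates 1 and 2, so this was nearly fixed in advance. In all, 17 gaps on X were longer than 200 kb, against 25 on V and 6 to 14 on the other autosomes.

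The combined list held 143 of 148 X regions of replicate 1 and 90 of 91 of replicate 2. The 5 missing from replicate 1 were weak, with scores from 3.77 to 4.20 at starts of 5244071, 4619840, 10146462, 14478176 and 15268181, and widths from 289 to 468 bp. The 1 missing from replicate 2, at 2087583 to 2090969, was of another kind. It was the widest X region of that list at 3387 bp, and only 1 region of the whole list was wider. Its score of 8.40 placed it at rank 321 of 746, the nearest combined region was 122 kb away and the nearest replicate 1 region 136 kb away.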

How the data were processed

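Samples were grouped by their titles. The free-text descriptions contradict these, as they put input DNA under every sample and ChIP DNA with the antibody under the input samples, and they were not used. Per the file headers the build is WormBase WS180, and each deposited list names PeakSeq as the caller and gives a q-value for every region. Not given in the sources used here are the aligner, caller version, read totals, use of the input samples and way of combining replicates. From the deposited q-value −log10 q was computed, called the score. Regions that overlapped by 1 bp counted as shared. The span of a chromosome is the stretch between its outermost regions over the 3 lists, since WS180 lengths were not used here. No gene was attached to a region, because the gene table used is one of WBcel235 and builds were not mixed; it served only to place lsy-2 on X.

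X was compared with the 5 autosomes in 10 tests, adjusted together by Benjamini-Hochberg: an exact binomial test of density and 9 two-sided Fisher's exact tests. Intervals are 95% exact for shares, Poisson for densities and Newcombe's for differences, and cover counting error only. The rule for named regions took the 20 of smallest q, the 3 widest, 3 at the edges of each replicate class, those missing from the combined list and the densest 100 kb; regions named among the 8 pairs stronger in replicate 2, and the longest gaps, were chosen after their values were seen. Members, tests and lists were chosen with earlier results of these data known. Alternatives were other overlap rules, −log10 q of 5 or more, joined regions, other spans, single replicate lists, each autosome left out, and the splits named as added. The p-values of an alternative were adjusted over 10 comparisons, not over all alternatives. Where a setting did not recompute a comparison, its reported p-value was kept in that adjustment. The code was tested on simulated data. Tests were run in scipy 1.17.1 under Python 3.11.15, tables were handled with pandas 2.3.3 and numpy 2.4.6, and plots were drawn with matplotlib 3.10.9.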

Additional observations from a re-analysis of the deposited data

Results flagged for a closer look

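The replicate 2 region of X at 2087583 to 2090969, with a −log10 q of 8.40, is a signal outside the combined list and outside the replicate 1 list. The lsy-2 gene, which the transgene also carries, is on X; whether the region lies at that gene was not determined, because the gene table is of another build.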

How the results depend on the processing

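Of 101 alternative values for the 10 comparisons, 94 had the direction of the reported value and stayed on its side of the threshold, including all 10 for the share with a neighbour within 10 kb and all 10 for the replicate ratio. The alternatives reuse the same regions and are not independent. Their p-values were adjusted setting by setting, with reported p-values kept for comparisons not recomputed, and not over the 101 alternatives. A call that appears in 1 setting is therefore not controlled for their number. With regions under 10 kb apart joined, the density ratio was 0.845 and its call was lost (adjusted p = 0.0648 in the exact binomial test; its alternatives ranged from 4.35e-07 to 0.0648). With regions under 1000 bp apart joined or, separately, without chromosome V, the share above the median −log10 q differed by −8.42 and −8.16 percentage points and passed (Fisher's exact tests, adjusted p = 0.0364 and 0.0444; range of its alternatives 0.0364 to 0.468). Without chromosome I, the share called in both replicates differed by −7.99 points and passed (Fisher's exact test, adjusted p = 0.0416; range of its alternatives 0.0416 to 0.624). With a −log10 q of 5 or more, the difference in the share called in neither turned to −0.60 points, past no threshold in either form, and the neighbour difference was −16.7 points. The difference in wide regions was 3.76 points among regions called in neither. With a single replicate list, the density ratio was 0.660 to 0.739, the strength difference −8.14 to −3.85, the width difference 15.8 to 23.5, the central difference −15.2 to −8.01 and the neighbour difference −16.9 to −15.1 points; the central call was lost in the replicate 2 list (Fisher's exact test, adjusted p = 0.224). Of the 20 strongest X regions, those at 11604178 and 806260 were called in 1 replicate list with a 50% reciprocal overlap. The cause was not tested for any of these changes. No paired analysis was possible because the input samples entered no comparison. With read depth unknown, absence from a list means not called, and nothing more.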
